A study of Mus musculus with 37 samples.

Results

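Cholesterol synthesis, apolipoprotein E and sterol transport were described in mouse cortical astrocytes through 32 genes, taken by symbol from 21975 genes with values in the deposited tables. The list held 18 enzymes of the mevalonate and sterol pathway, 5 genes of the SREBP system (both SREBP transcription factors and 3 of their regulators), both LXR receptors, and 7 genes of sterol efflux, carriage, trafficking and storage. It was a chosen list and not the whole pathway. Further lists with other sterol and lipid genes were read beside it, and the remaining genes of the pathway were not analysed here.

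The study asked how cortical astrocytes differ after a controlled cortical impact (CCI), and between injured mice that did (PTE+) and did not (PTE-) develop post-traumatic epilepsy. Astrocytes were pulled from dissociated cortex with beads against the surface antigen ACSA-2, separately from the injured (ipsilateral) and the opposite (contralateral) hemisphere, and their RNA was sequenced as 37 libraries. Each library came from 1 hemisphere of 1 mouse, and 17 mice gave both hemispheres (3 PTE+, 9 PTE- and 5 sham). Values were TPM, transcript levels corrected for transcript length and scaled to the same sum in every library, so the depth of each library was unknown and a level is a share of the library's RNA.

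All mice were males of the outbred CD1 stock according to the methods, while the genotype label reads WT CD31 for injured and sham mice alike, and no age was given with the libraries. The ipsilateral libraries came from 4 PTE+, 10 PTE- and 5 sham mice, and the contralateral libraries from 4 PTE+, 9 PTE- and 5 sham mice, all taken 4 months after injury. Injured mice received a severe impact over the right parietal cortex. Sham mice had the craniectomy but no impact, and electrodes for EEG were implanted in injured and sham mice alike, so the sham groups were operated brains and not untouched ones. PTE+ and PTE- were assigned from seizures seen during the recording period, and an animal that had seizures only outside it would count as PTE-.

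The labelled cell type was checked against marker genes. The 10 astrocyte markers were found in every library, with a summed level of 15075 to 21458 TPM, and their most abundant gene was Aldoc (mean 10085 TPM). The summed levels of the other lists were lower. They reached 542 to 4499 TPM for 12 oligodendrocyte markers (most abundant Mbp, 1151 TPM), 329 to 2418 TPM for 9 endothelial markers (Ly6c1, 505 TPM) and 141 to 407 TPM for 6 markers of oligodendrocyte precursors (Olig1, 194 TPM). The remaining lists reached 120.3 to 969.8 TPM for 12 microglial markers, 76.0 to 779 TPM for 9 neuronal markers (Snap25, 112 TPM) and 47.3 to 309 TPM for 6 markers of fibroblasts and meninges (Dcn, 61.2 TPM). RNA of other cells was thus present, and in such bulk samples fewer cells of a type and less RNA per cell cannot be told apart.

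A single library stood apart. In ipsilateral PTE- mouse 9_14, 10727 genes were above 0 TPM, against 15599 to 18319 in the other ipsilateral libraries, and 399 of the 6408 genes above 10 TPM in all of those were listed at 0. It was the only library with listed marker genes at 0 (7 of 12 microglial, 9 of 12 oligodendrocyte, 3 of 6 precursor, 4 of 9 neuronal and 3 of 6 fibroblast markers), although none of the astrocyte or endothelial markers was. Among the 32 genes, Lss and Hsd17b7 were listed at 0 in it, as was the housekeeping gene Hprt (16.9 to 42.8 TPM elsewhere ipsilaterally). It held the highest ipsilateral value of 11 genes of the list and the lowest of 8, so values that rest on it are also given without it. Mouse 9_14 had no contralateral library and does not enter comparisons within mice.

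Cholesterol does not cross the blood-brain barrier, and in the adult brain astrocytes are a main site of its synthesis. Synthesis runs from acetyl-CoA through mevalonate, farnesyl diphosphate, squalene and lanosterol. Its enzymes are induced by SREBP factors, which SCAP escorts to the Golgi when sterols are low and INSIG proteins hold back when sterols are high, while LXR receptors sense oxysterols and induce the ABC transporters that load cholesterol onto particles carrying apolipoprotein E.

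Apoe, which encodes the main apolipoprotein of the brain (ENSMUSG00000002985, chr7:19696109-19699188 in GRCm38), was the gene with the highest TPM in 37 of 37 libraries. Its level averaged 56167 ± 8669 TPM (SD, n = 37), ranged from 40077 to 75117 TPM, and made up 4.01% to 7.51% of a library's TPM. All 32 genes together made up 4.56% to 7.89%.

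The second gene of the list was Msmo1, which encodes the sterol C4-methyl oxidase, with a mean of 833 TPM. Fdps, which makes farnesyl diphosphate, followed with 361 TPM, and Srebf1, which encodes SREBP-1, with 320.4 TPM. In all, 18 genes averaged above 100 TPM, 12 of them enzymes. A further 12 lay between 10 and 100 TPM, and 2 below 10 TPM: the sterol carrier Stard4 (6.91 TPM) and the exporter Abcg1 (1.61 TPM). Abcg1 did not pass the filter of a mean above 5 TPM in at least 1 compared group, so every comparison tested 31 of the 32 genes. The plot of levels by gene shows this order with the spread over libraries.

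**Figure D1:**
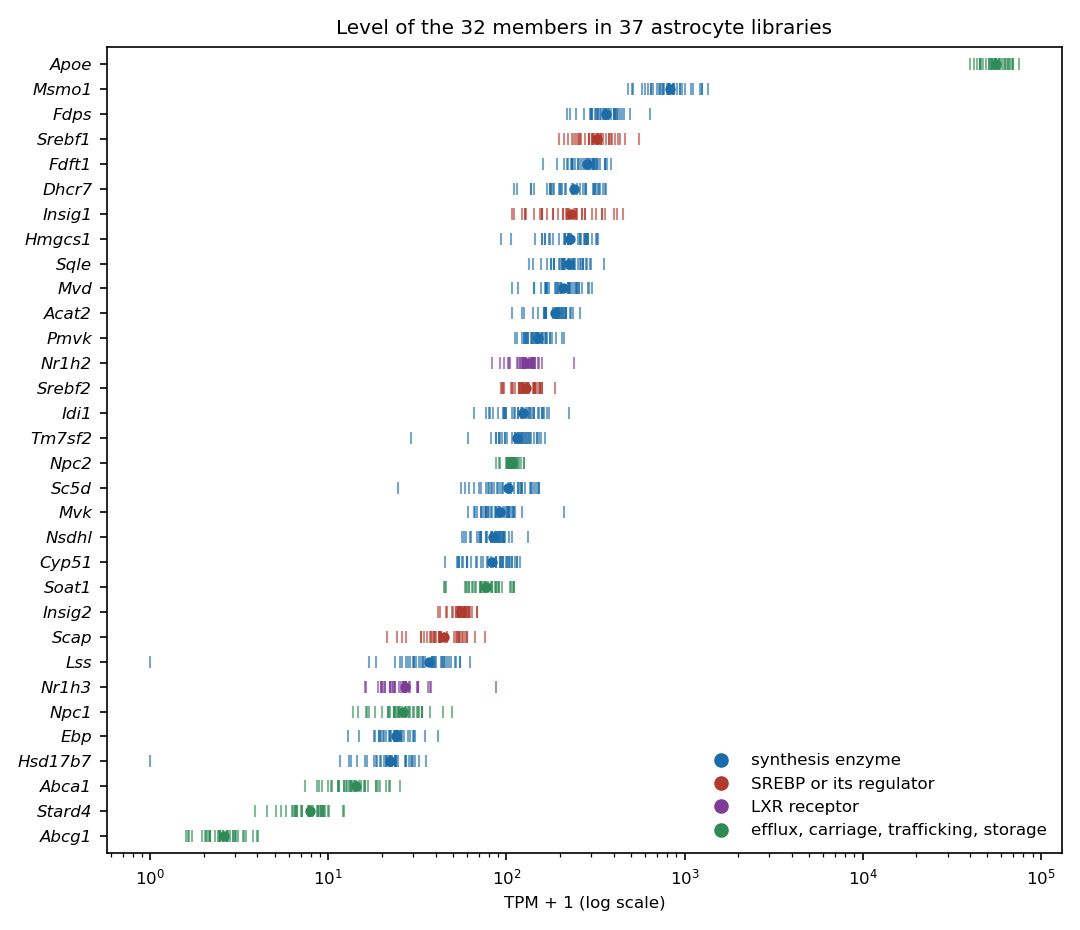
Level of each of the 32 genes in TPM (log axis) over all 37 libraries, with each point a library. Apoe lies above every other gene in every library, and Abcg1 averages 1.61 TPM.

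The genes lay on 18 chromosomes. The only pair closer than 1000 kb was Fdps and Pmvk on chromosome 3, 353 kb apart.

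Each comparison was tested with limma across all genes that passed the filter, and a gene was called at an unadjusted p under 0.05 with at least a 1.2-fold difference. Differences are on the log2 scale of TPM + 1. The CCI comparison of a hemisphere pools PTE+ and PTE- mice against sham, and the PTE comparison sets PTE+ against PTE-, so both use the same injured libraries.

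In ipsilateral CCI against sham, 169 of 10434 genes were called (1.62%), 129 higher and 40 lower, and 0 of the 31 tested genes of the list. Without sham mouse 9_11 the genome-wide count was 415 and 1 gene of the list was called, and without 9_14 it was 399, with 2 genes at an adjusted p under 0.05 and 0 called genes of the list. In ipsilateral PTE+ against PTE-, 60 of 10473 genes were called (0.573%), 34 higher and 26 lower, and 0 of 31 of the list. Leaving out PTE+ mouse 8_10 gave 121 called genes, leaving out PTE+ mouse 9_17 gave 23 (9 higher and 14 lower) and leaving out PTE- mouse 9_14 gave 197, and 5 genes of the list were called without 8_10 and 3 without 9_14. The split into higher and lower depended on the scaling: it was 141 and 82 in the CCI comparison after quantile normalization and 115 and 62 after centring each library on its median, and in the PTE comparison 33 and 48, and 14 and 36.

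In contralateral CCI against sham, 428 of 10556 genes were called (4.05%), 57 higher and 371 lower, and 0 of 31 of the list. Without PTE+ mouse 9_17 the genome-wide count was 667, and without sham mice 8_16, 9_9 and 9_11 in turn it was 728, 883 and 231. Leaving out PTE+ mouse 8_10 (346 of 10567 genes called), PTE+ mouse 9_17 (667 of 10550), sham mouse 9_9 (883 of 10592) or sham mouse 9_10 (308 of 10492) gave 1 called gene of the list each time. In contralateral PTE+ against PTE-, 291 of 10423 genes were called (2.79%), 203 higher and 88 lower, and 1 of 31 of the list (Nr1h2, higher). It was 489 genome-wide when PTE+ mouse 9_18 was left out, and 201 without PTE+ mouse 9_17, where the split turned to 60 higher and 141 lower. Quantile normalization turned the split to 200 higher and 155 lower in the CCI comparison and to 136 and 242 in the PTE comparison, and median centring to 255 and 155, and to 148 and 213. Centring also moved the median log2 difference of all genes from -0.07 to 0.03 in the CCI comparison.

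The adjusted p was under 0.05 for 0 genes in each of these 4 comparisons, against 195, 63, 472 and 303 genes with an unadjusted limma p under 0.05 in the order given. The smallest adjusted p of a gene of the list was 0.977. The plot of differences by gene sets the 4 comparisons side by side.

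**Figure D2:**
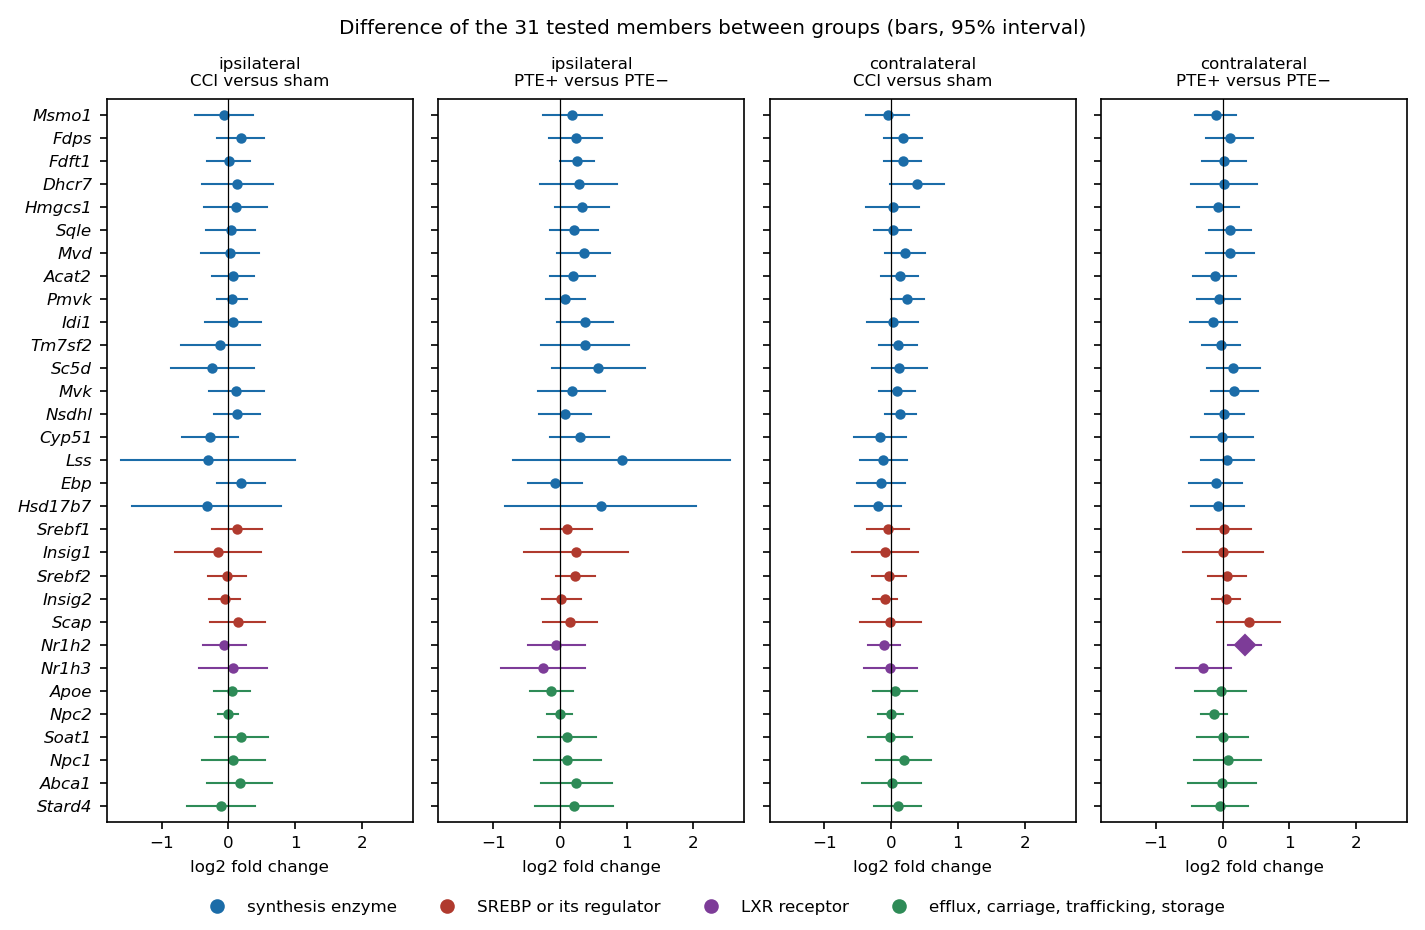
Log2 difference of each tested gene of the list in the 4 comparisons within a hemisphere, with genes grouped by role and called genes marked. The called gene is Nr1h2 in contralateral PTE+ against PTE-, at 0.33, and 17 of 18 enzymes are above 0 in ipsilateral PTE+ against PTE-.

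The 18 enzymes were described first by their mean level, the mean log2(TPM + 1) per library. Ipsilaterally it was 6.78 in PTE+ mouse 8_10 and 7.23, 7.23 and 7.24 in PTE+ mice 9_17, 9_18 and 9_19. In the 10 PTE- mice it ran from 6.44 over a median of 6.85 to 7.15. In sham mice it was 7.00 (8_15), 6.36 (8_16), 7.04 (9_9), 6.76 (9_10) and 7.41 (9_11). Of the PTE+ mice, 9_17, 9_18 and 9_19 lay above all PTE- mice and 8_10 lay within their range, and the sham mice covered the whole range of the injured ones.

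The ipsilateral PTE+ mean of 7.12 ± 0.23 (SD, n = 4) exceeded the PTE- mean of 6.82 ± 0.25 (SD, n = 10) by 0.31, against a pooled SD of 0.24. Leaving out each PTE+ mouse or PTE- mouse 9_14 in turn gave differences of 0.27 to 0.42, and the other PTE- mice were not left out. Contralaterally the means were 7.05 ± 0.13 (SD, n = 4) in PTE+, 7.04 ± 0.20 (SD, n = 9) in PTE- and 6.98 ± 0.21 (SD, n = 5) in sham mice, and these differed by less than the spread between mice. No p is given for such means, because the list was chosen with results of these data known. The plot of the enzyme mean shows every library.

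**Figure D3:**
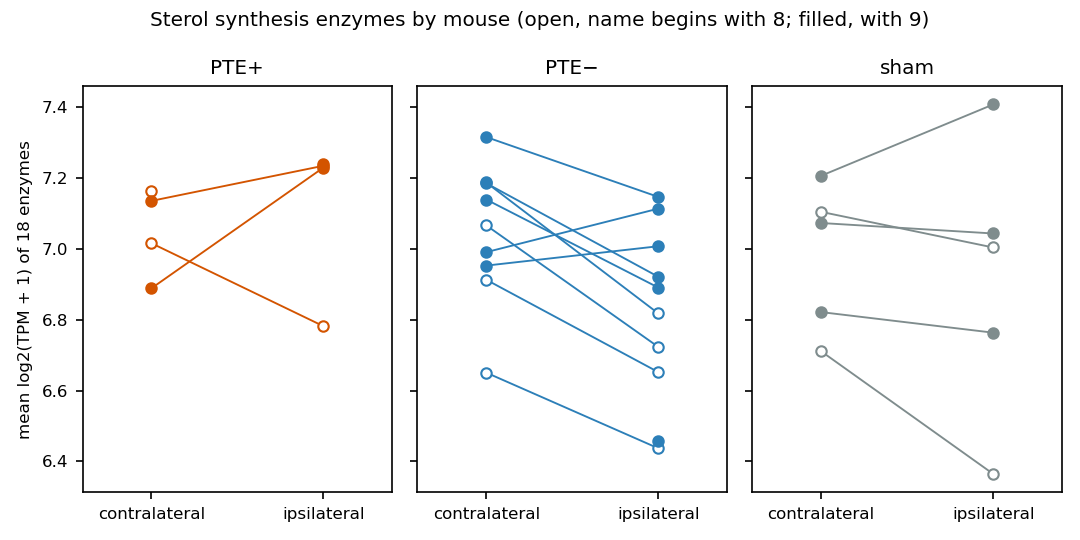
Mean log2(TPM + 1) of the 18 synthesis enzymes in every library by hemisphere and group, with both libraries of a mouse joined by a line. It is lower ipsilaterally in 7 of 9 PTE-, 1 of 3 PTE+ and 4 of 5 sham mice. Ipsilateral PTE+ mice 9_17, 9_18 and 9_19 lie at 7.23 to 7.24 and mouse 8_10 at 6.78, and contralateral group means lie between 6.98 and 7.05.

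Gene by gene, 17 of 18 enzymes had a positive log2 difference in ipsilateral PTE+ against PTE- (median 0.27, all genes 0.12), 17 after quantile normalization (median 0.25) and 16 after median centring (median 0.19, all genes 0.04 under both). The exception was Ebp, the sterol isomerase, at -0.07, and without 9_14 all 18 were positive (median 0.27, all genes 0.08). The 0 called enzymes turned to 5 without PTE+ mouse 8_10, which were Hmgcs1 (0.51), Idi1 (0.55), Fdft1 (0.31), Cyp51 (0.51) and Dhcr7 (0.59), with limma p from 0.0151 to 0.0407 and an adjusted p of 0.938, among 121 called of 10555 genes. Without PTE- mouse 9_14 they turned to 3, which were Mvd (0.43), Fdps (0.33) and Mvk (0.31), with limma p from 0.0175 to 0.0337 and an adjusted p of 0.983, among 197 called of 10440 genes. With libraries weighted by their quality 8 enzymes were called, among 441 called of 10473 genes. In the contralateral PTE comparison 9 of 18 enzymes were positive (median 0.01), 7 after quantile normalization (-0.03) and 6 after median centring (-0.05). Without PTE+ mouse 8_17, 6 were positive (-0.06), and without PTE+ mouse 9_18, 9 were (-0.01), so the sign of the median rested on single mice.

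Mouse names begin with 8 or 9, and what this stands for is not stated. Ipsilaterally the enzyme mean was 6.78 in the only PTE+ mouse named 8 and 7.24 in the 3 named 9, against 6.66 in the 4 PTE- mice named 8 and 6.92 in the 6 named 9. The 6 PTE- mice named 9 include 9_14, which was at 6.46. Among mice named 9 alone, 17 of 18 enzymes were again positive, with a median of 0.20 (all genes 0.11). With the first digit as a term in the fit, the median of the 31 tested genes of the list was 0.13 (all genes 0.09). Without that term it was 0.21 (all genes 0.12). Over all ipsilateral libraries, 12 named 9 and 7 named 8, 17 of 18 enzymes had a higher mean in mice named 9 (median log2 difference 0.36, all genes 0.12), while contralaterally 9 of 18 had (median 0.01, all genes 0.12). Contralateral enzymes went both ways, from 0.53 for Hmgcs1 to -0.32 for Ebp. In the contralateral PTE comparison, 3 of 18 enzymes were positive among mice named 9 alone.

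Marker genes of other cells were read in the ipsilateral PTE comparison as well, and 0 were called. The median log2 difference was 0.73 over 9 neuronal markers (9 of 9 positive), 0.64 over the 8 oligodendrocyte markers tested (7 positive), 0.54 over 5 fibroblast and meninges markers (5 positive), 0.19 over 8 endothelial markers (8 positive), 0.19 over 6 markers of oligodendrocyte precursors (5 positive), 0.15 over 10 astrocyte markers (9 positive) and -0.20 over 11 microglial markers (1 positive). Library 9_14, with many of these markers listed at 0, is among the PTE- mice. Without it the medians in the same order were 0.41, 0.24, 0.28, 0.27, 0.25, 0.10 and -0.52, and the microglial marker Tyrobp was called lower. The summed oligodendrocyte level was 2372 TPM in PTE+ mouse 8_10, 1223 in 9_17, 1269 in 9_18 and 1671 in 9_19, against 774 to 2304 TPM in PTE- mice with a median of 1373. Mouse 8_10, with the lowest enzyme mean of its group, had the highest oligodendrocyte sum of that group. The part of these cells in the enzyme levels was not tested.

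Sc5d, the sterol C5-desaturase, had 1 of the 3 largest differences of the ipsilateral PTE comparison. Its level was 84.1, 118.3, 142.4 and 108.9 TPM in PTE+ mice 8_10, 9_17, 9_18 and 9_19, and ran from 23.7 over a median of 83.5 to 120.1 TPM in PTE- mice. Only mouse 9_18 lay above the PTE- range, so the groups overlapped. The log2 difference was 0.57 ± 0.33 (SE), with an exact two-sided permutation p of 0.133 and an adjusted limma p of 0.977. The lowest PTE- value was that of 9_14, and without it the log2 difference was 0.40.

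Lss, which closes squalene epoxide to lanosterol, was at 29.0, 47.6, 50.4 and 45.4 TPM in the same PTE+ mice, and between 0 (9_14) and 50.8 TPM with a median of 33.0 in PTE- mice. All 4 PTE+ values lay within the PTE- range. Its log2 difference of 0.93 ± 0.76 (SE; exact permutation p 0.315) was 0.43 without 9_14. Hsd17b7, a sterol ketoreductase, was at 13.5, 20.2, 29.5 and 28.5 TPM in PTE+ mice, and between 0 (9_14) and 26.2 TPM with a median of 20.6 in PTE- mice. PTE+ mice 9_18 and 9_19 exceeded the PTE- range. Its log2 difference of 0.61 (exact permutation p 0.462) was 0.18 without 9_14.

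In ipsilateral CCI against sham, 12 of 18 enzymes were positive with a median log2 difference of 0.04 (11 after quantile normalization and 10 after median centring), while the difference in the enzyme mean was -0.01 against a pooled SD of 0.30. Without sham mouse 8_16, 5 of 18 were positive (median -0.15), without sham mouse 9_11, 14 were (median 0.17), and without 9_14, 12 were (median 0.02). The 3 largest differences were those of Hsd17b7 (-0.33, exact permutation p 0.618, and -0.01 without 9_14), Lss (-0.31, exact permutation p 0.697, and 0.06 without 9_14) and Cyp51. With single mice left out in turn, the Hsd17b7 value ran from -0.50 to -0.01 and the Lss value from -0.53 to 0.06.

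Cyp51, the lanosterol 14-demethylase, ran from 44.5 over a median of 71.8 to 103.9 TPM in ipsilateral CCI mice. Sham mice 8_15, 8_16, 9_9, 9_10 and 9_11 had 67.0, 56.3, 92.1, 110.4 and 117.7 TPM. Sham mice 9_10 and 9_11 exceeded all injured mice, while the other sham mice lay among them. Its log2 difference was -0.28 ± 0.20 (SE), with an exact permutation p of 0.200. It was -0.42 without sham mouse 8_16 and -0.16 without sham mouse 9_11, and it was called once the fit had a term for the first digit of the mouse name (-0.30, limma p 0.0317, adjusted p 0.9998).

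In contralateral CCI against sham, 13 of 18 enzymes were positive (median 0.09, all genes -0.07; 11 with a median of 0.11 after quantile normalization and 14 with a median of 0.19 after median centring). It was 10 (median 0.04) without sham mouse 8_16, 11 (0.04) without sham mouse 9_10 and 15 (0.15) without sham mouse 9_11. Dhcr7, the last reductase before cholesterol, ran from 142.5 over a median of 276.2 to 359.3 TPM in CCI mice. It was at 177.4, 135.6, 266.8, 197.5 and 210.9 TPM in sham mice 8_15, 8_16, 9_9, 9_10 and 9_11. The groups overlapped, with the median CCI mouse above the highest sham mouse. The log2 difference of 0.39 ± 0.19 (SE; exact permutation p 0.0844) missed the threshold and passed it without PTE+ mouse 8_10 (0.43, limma p 0.0381, adjusted p 0.996) and without sham mouse 9_9 (0.51, limma p 0.0232, adjusted p 0.524), and also after median centring (0.49) and with a term for the first digit of the mouse name (0.41).

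Pmvk, the phosphomevalonate kinase, ran from 114.1 over a median of 159.7 to 202.9 TPM in contralateral CCI mice. Sham mice 8_15, 8_16, 9_9, 9_10 and 9_11 were at 140.1, 138.0, 128.1, 126.6 and 121.5 TPM. Of the 13 CCI mice, 9 lay above the highest sham mouse. The log2 difference of 0.24 ± 0.12 (SE; exact permutation p 0.0593) passed the threshold without PTE+ mouse 9_17 (0.27, limma p 0.0345, adjusted p 0.717), after median centring (0.34) and with libraries weighted by quality (0.27). Mvd, the mevalonate diphosphate decarboxylase, had the next largest difference, 0.20 (exact permutation p 0.193; 0.11 without sham mouse 8_16). It ran from 141.6 over a median of 201.5 to 301.3 TPM in CCI mice, around the sham values of 225.6, 141.4, 193.6, 163.6 and 195.6 TPM. Hsd17b7 was called lower without sham mouse 9_10 (-0.35, limma p 0.0448, adjusted p 0.9996).

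The abundant enzymes Msmo1 and Fdps were not called in these comparisons. Ipsilateral Msmo1 was at 646, 1088, 757 and 858 TPM in PTE+ mice 8_10, 9_17, 9_18 and 9_19, and ran from 503 over a median of 758 to 1260 TPM in PTE- mice. In sham mice 8_15, 8_16, 9_9, 9_10 and 9_11 it was at 1005, 482, 819.8, 599.7 and 1246 TPM, a range that held 13 of the 14 injured mice. Its log2 differences were -0.07 (CCI, exact permutation p 0.768) and 0.19 (PTE, exact permutation p 0.422) ipsilaterally, and -0.05 (exact permutation p 0.757) and -0.10 (exact permutation p 0.508) contralaterally. The ipsilateral CCI value was -0.24 without sham mouse 8_16, 0.02 without sham mouse 8_15 and 0.1004 without sham mouse 9_11, the ipsilateral PTE value 0.30 if PTE+ mouse 8_10 was left out and 0.05 if 9_17 was, and the contralateral CCI value 0.03 without sham mouse 8_15 and 0.104 without sham mouse 9_11.

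Fdps was at 403.8, 456, 369.9 and 408.9 TPM in the same PTE+ mice and ran from 217 over a median of 338 to 639 TPM in PTE- mice. All PTE+ values lay inside the PTE- range, whose upper end was mouse 9_14. The log2 difference was 0.24 (exact permutation p 0.286) and 0.33 without 9_14, where it was called. In the ipsilateral CCI comparison it was 0.18 (exact permutation p 0.326), 0.06 without sham mouse 8_16 and 0.12 without 9_14, and contralaterally 0.18 for CCI (exact permutation p 0.212) and 0.11 for PTE (exact permutation p 0.566; 0.05 to 0.23 when each PTE+ mouse was left out in turn).

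The 5 genes of the SREBP system all had positive log2 differences in both PTE comparisons (medians 0.15 ipsilaterally and 0.05 contralaterally), and 2 and 0 of 5 were positive in the ipsilateral and contralateral CCI comparisons (medians -0.02 and -0.04). All genes had medians of 0.12, 0.05, -0.01 and -0.07 in these 4 comparisons in the order given, and 71.6%, 61.6%, 47.1% and 33.5% of them were positive. Without 9_14, 4 of 5 were positive in the ipsilateral PTE comparison and 3 of 5 in the ipsilateral CCI comparison (medians 0.10 and 0.01). Srebf1 ran from 220.8 over a median of 325.8 to 459.4 TPM in ipsilateral CCI mice. Sham mice 8_15, 8_16, 9_9 and 9_10 had 258.5, 275.5, 237.5 and 254.9 TPM, and sham mouse 9_11 had 553.9 TPM, above all injured mice. The log2 difference was 0.13 (exact permutation p 0.515), it was 0.045 without sham mouse 9_9, and without 9_11 it was 0.35 and was called (limma p 0.0375, adjusted p 0.999). Its other log2 differences were 0.11 (ipsilateral PTE, exact permutation p 0.587; 0.01 without PTE+ mouse 9_19 and 0.05 without 9_14), -0.04 (contralateral CCI, exact permutation p 0.802) and 0.02 (contralateral PTE, exact permutation p 0.917), and both contralateral values changed sign when single mice were left out.

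Scap, the escort of SREBP, was at 38.4, 58.9, 57.6 and 41.2 TPM in contralateral PTE+ mice 8_10, 8_17, 9_17 and 9_18, and ran from 20.4 over a median of 38.0 to 53.2 TPM in PTE- mice. PTE+ mice 8_17 and 9_17 lay above all PTE- mice and the others among them. Its log2 difference was 0.39, with an exact permutation p of 0.130. The regulators that hold SREBP back, Insig1 and Insig2, averaged 229 and 54.7 TPM, and Srebf2, which encodes SREBP-2, 129 TPM.

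Of the LXR receptors, Nr1h2 encodes LXR-beta (ENSMUSG00000060601, chr7:44549616-44553951 in GRCm38). In contralateral PTE+ mice 8_10, 8_17, 9_17 and 9_18 its level was 144.3, 142.3, 137.3 and 140.5 TPM. In the 9 contralateral PTE- mice it ran from 82.1 over a median of 115.2 to 135.7 TPM. All PTE+ mice lay above all PTE- mice. Such a separation of groups was found for 18 of 10423 genes (0.173%), and for 1 of the 31 genes of the list. The sham mice lay across both ranges, with 140.4, 121.0, 136.8, 124.5 and 125.0 TPM in 8_15, 8_16, 9_9, 9_10 and 9_11.

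The mean Nr1h2 level was 141.1 ± 2.98 TPM (SD, n = 4) in PTE+ mice. In PTE- mice it was 112.9 ± 15.4 TPM (SD, n = 9). The log2 difference was 0.33 ± 0.12 (SE), with a 95% interval of 0.08 to 0.58, an unadjusted limma p of 0.0129 and an adjusted p of 0.999. The exact two-sided permutation p over all 715 arrangements was 0.00839. With 291 genes of 10423 called, 1 in 31 is near the genome-wide share. Under 15 alternative settings the log2 difference was 0.27 to 0.35 and the adjusted p 0.450 to 0.9998, and the call was lost in 2: at a 1.5-fold threshold and among mice named 9 alone (0.31, limma p 0.0768).

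**Figure D4:**
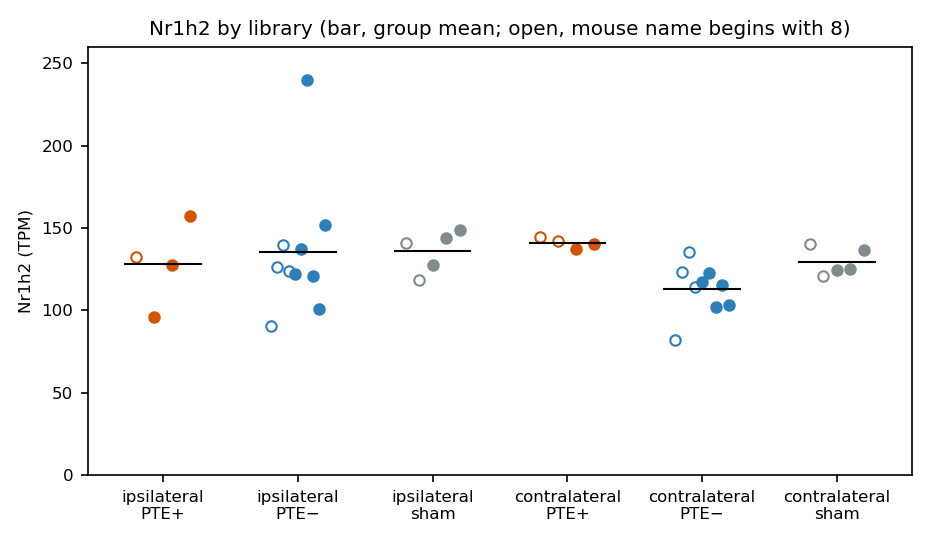
Nr1h2 level in TPM in every library by hemisphere and group, with group means as bars. Contralateral PTE+ mice lie at 137.3 to 144.3 TPM and PTE- mice at 82.1 to 135.7 TPM, and ipsilaterally the groups overlap.

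Ipsilaterally Nr1h2 was at 132.6, 95.7, 127.8 and 157.4 TPM in PTE+ mice 8_10, 9_17, 9_18 and 9_19. The PTE- mice ran from 90.5 over a median of 125.3 to 240.1 TPM, the highest being 9_14. The groups overlapped, and the log2 difference was -0.05 (exact permutation p 0.826). It was 0.05 without 9_14 and 0.08 without PTE+ mouse 9_17, so its direction rested on single mice. Within mice, Nr1h2 was lower on the ipsilateral side in 3 of 3 PTE+ mice (mean log2 difference -0.26) and higher in 8 of 9 PTE- mice (mean 0.13). These differences contain the same contralateral values by which Nr1h2 was called, so they are not separate evidence.

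Marker genes of the contralateral PTE comparison were called only in the endothelial and neuronal lists. All 8 tested endothelial markers were positive (median 0.72), and Tek (0.80, limma p 0.0253) and Pecam1 (0.78, limma p 0.0149) were called, with an adjusted p of 0.999 for both. The summed endothelial level was 1821, 1296, 2418 and 741 TPM in PTE+ mice 8_10, 8_17, 9_17 and 9_18, against 506 to 1379 TPM in PTE- mice with a median of 1021. PTE+ mouse 9_18, with Nr1h2 at 140.5 TPM, lay below the PTE- median of that sum. All 9 neuronal markers were positive (median 0.64), Stmn2 being called (0.64, limma p 0.0491, adjusted p 0.999), with sums of 358, 165, 396 and 700.4 TPM in the same PTE+ mice against 76.0 to 684 TPM in PTE- mice (median 265). Markers of oligodendrocyte precursors were positive in 5 of 5 (median 0.23) and astrocyte markers in 1 of 10 (median -0.09), with 0 called. None of the endothelial and neuronal markers was at 0 in a contralateral library, and the part of these cells in the Nr1h2 level was not tested.

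Nr1h3, which encodes LXR-alpha, had the third largest difference of the contralateral PTE comparison. It was at 18.1, 18.7, 18.95 and 26.3 TPM in the contralateral PTE+ mice (9_18 the highest), against 14.98 to 35.2 TPM with a median of 26.4 in PTE- mice. All PTE+ values lay within the PTE- range. Its log2 difference was -0.29, with an exact permutation p of 0.179.

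The 6 transport genes tested, all but Abcg1, gave 0 calls in the 4 comparisons. With libraries weighted by quality Npc1 was called in ipsilateral CCI (0.398, limma p 0.0396, adjusted p 0.494), as was Srebf1 (0.402, limma p 0.00689, adjusted p 0.359), among 843 called of 10434 genes. Ipsilateral Apoe was at 62825, 51504, 55379 and 52401 TPM in PTE+ mice 8_10, 9_17, 9_18 and 9_19, and ran from 46070.0 over a median of 60618 to 75117 TPM in PTE- mice. In sham mice 8_15, 8_16, 9_9, 9_10 and 9_11 it was at 58329, 58494, 52244, 59754 and 55042 TPM. All PTE+ and sham values lay within the PTE- range. The log2 differences were 0.06 ± 0.13 (SE; CCI, exact permutation p 0.549) and -0.13 ± 0.15 (SE; PTE, exact permutation p 0.299). The CCI value ran from 0.03 to 0.08 when each PTE+ or sham mouse or PTE- mouse 9_14 was left out in turn.

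Contralateral Apoe was at 53064, 69084, 45566 and 45766 TPM in PTE+ mice 8_10, 8_17, 9_17 and 9_18, and ran from 42379 over a median of 53693 to 69658 TPM in PTE- mice. Sham mice had 62824, 61349, 51145, 43795 and 40077 TPM. The groups overlapped over nearly their whole ranges. The log2 differences were 0.06 (CCI, exact permutation p 0.641; -0.02 without sham mouse 9_11) and -0.03 (PTE, exact permutation p 0.845; 0.04 without PTE+ mouse 9_17 or 9_18). The other transport genes stayed between 0.58 and 124.7 TPM: the exporters Abca1 (mean 13.3 TPM) and Abcg1, the late endosomal cholesterol proteins Npc1 (25.3 TPM) and Npc2 (107 TPM), Stard4, and the esterifying enzyme Soat1 (76.3 TPM).

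The hemispheres of injured mice were compared next. With all injured libraries as independent samples, 263 of 10357 genes were called (2.54%), 148 higher and 115 lower ipsilaterally, 3 of them at an adjusted p under 0.05, and 0 of 31 of the list. Without 9_14 it was 392 genes, and again 0 of the list. With the mouse as a block, over 12 mice with both hemispheres, 467 of 10350 genes were called (4.51%), 249 higher and 218 lower, 22 at an adjusted p under 0.05, and 2 of 31 of the list. These were Msmo1 (-0.27 ± 0.10 (SE), limma p 0.0143, adjusted p 0.384) and Stard4 (-0.31 ± 0.14 (SE), limma p 0.0437, adjusted p 0.515), for which the exact sign-flip test below gave a p of 0.0571. Whether mouse names pair the hemispheres was checked over 10065 genes, with group means removed. Same-mouse libraries had a median r of 0.42, from 0.04 to 0.69, against -0.11 for different mice of a group. Removing group means itself pushes r between mice of a group below 0, so -0.11 is not a neutral baseline. The r was above 0.1 in 16 of 17 same-mouse pairs and in 22 of 98 pairs of different mice.

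An exact two-sided sign-flip test over the 12 mice gave a p under 0.05 for 935 of 10357 genes (9.03%), 471 higher and 464 lower ipsilaterally, and for 5 of 31 of the list (16.1%). The smallest p it can give is 0.000488, and the smallest adjusted p was 0.195. Apoe was higher ipsilaterally in 11 of 12 mice, by a mean of 0.18 (exact p 0.00439, adjusted p 0.314), which is under 1.2-fold, and in 3 of 5 sham mice by a mean of 0.15. The remaining genes were enzymes, and all were lower ipsilaterally. Msmo1 was lower in 10 of 12 mice (mean -0.27, exact p 0.0322, adjusted p 0.513) and in 4 of 5 sham mice (mean -0.17).

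Sc5d was lower ipsilaterally in 10 of 12 mice, including 9 of 9 PTE- mice (mean -0.21, exact p 0.0220, adjusted p 0.471), against a mean of 0.01 in sham mice. Cyp51 was lower in 9 of 12 (mean -0.18, exact p 0.0254, adjusted p 0.488) and Pmvk in 10 of 12 (mean -0.10, exact p 0.0459, adjusted p 0.543), with sham means of -0.10 and 0.13. In the comparison without the block, 2 of 18 enzymes were positive (median -0.15, all genes -0.03; 3 after quantile normalization, 2 after median centring, where Sc5d was called, and 1 without 9_14, with a median of -0.10), and with the mouse as a block 1 of 18 (median -0.11).

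The enzyme mean within a mouse was lower ipsilaterally in 8 of 12 injured mice, by -0.12 ± 0.22 (SD) on average. Among PTE- mice it was lower in 7 of 9, with differences from -0.37 to 0.12 and a mean of -0.19 ± 0.17 (SD). In PTE+ mice 8_10, 9_17 and 9_18 the differences were -0.23, 0.34 and 0.10. In sham mice it was lower in 4 of 5, from -0.35 to 0.20 with a mean of -0.07 ± 0.20 (SD), so the ranges of injured and sham mice overlapped. The enzyme mean was lower ipsilaterally in every mouse named 8 (-0.37 to -0.10), while mice named 9 went both ways (-0.26 to 0.34). The earlier plot of the enzyme mean joins the libraries of each mouse, and the plot of hemisphere differences shows single genes.

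**Figure D5:**
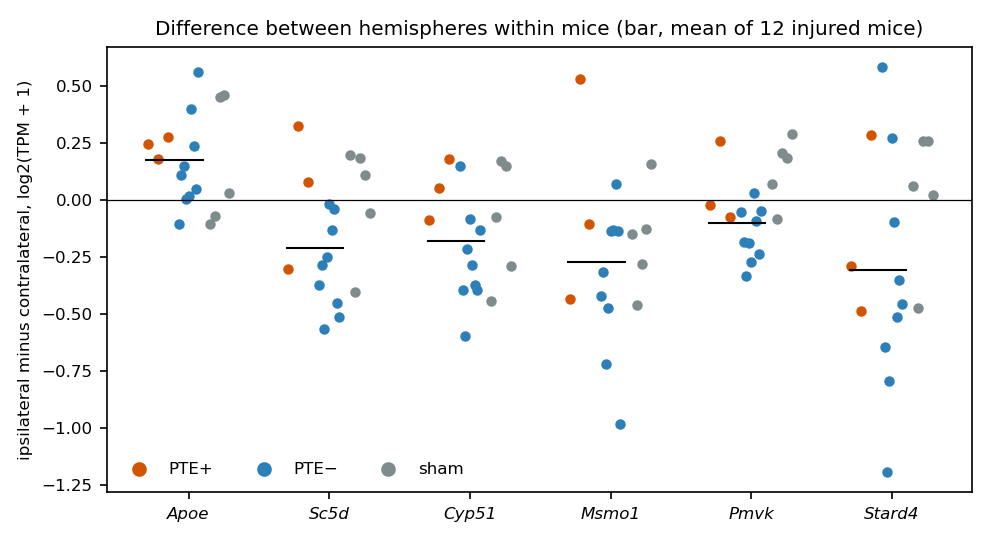
Ipsilateral minus contralateral log2(TPM + 1) within each mouse by group, for Apoe, Sc5d, Cyp51, Msmo1, Pmvk and Stard4. Bars show the mean of the 12 injured mice. Apoe is higher ipsilaterally in 11 of these 12 mice.

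Marker levels moved with the hemisphere as well. Of 9 oligodendrocyte markers tested in injured mice, 8 were negative (median -0.89), and Mal (-0.93), Mobp (-1.35), Mbp (-0.89) and Mog (-1.09) were called lower ipsilaterally. Their summed level ran from 774 over a median of 1393 to 2372 TPM ipsilaterally and from 874 over a median of 2265 to 3800.2 TPM contralaterally. All 8 endothelial markers tested were negative (median -0.43), with Pecam1 (-0.48), Flt1 (-0.59), Slco1a4 (-0.55) and Ly6c1 (-0.64) called, and sums of 329 to 1538 TPM (median 798) against 506 to 2418 TPM (median 1099). The astrocyte marker Gfap was called higher (1.2 on the log2 scale), while 5 of 10 astrocyte markers were positive and 5 negative (median -0.01). Mouse 9_14, with 9 of 12 oligodendrocyte markers listed at 0, is among the ipsilateral libraries. Without it the oligodendrocyte and endothelial medians were -0.63 and -0.46, and the markers named here were again called. In all, 4 oligodendrocyte, 5 endothelial and 1 precursor marker were then called lower, and 2 astrocyte markers higher. Neuronal markers turned from 5 of 9 positive (median 0.02) to 7 of 9 (median 0.22) without 9_14, with 0 called either way. Microglial markers turned from 2 of 11 positive (median -0.11) to 11 of 11 (median 0.15) without it, with 0 called either way. The part of these cells in the enzyme levels was not tested.

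Whether effects differed between hemispheres was tested as an interaction. For the CCI effect, 147 of 10706 genes were called (1.37%), 140 higher and 7 lower, and 0 of 31 of the list. Quantile normalization turned the split to 82 and 65 and median centring to 62 and 66, with the median of all genes moving from 0.05 to -0.08. Of the 18 enzymes, 6 were positive (median -0.08), 1 after median centring and 5 without 9_14. Of the marker genes only Gfap was called (1.41), and Aqp4 as well without 9_14 (0.43). Oligodendrocyte markers were negative in 9 of 10 (median -0.78, and -0.57 without 9_14), neuronal ones in 7 of 9 (-0.21, and -0.14 without 9_14) and endothelial ones in 6 of 8 (-0.13, and -0.11), and fibroblast and meninges markers were positive in 5 of 5 (0.52, and 0.67), and the part of these cells was not tested. The genome-wide count was 288 without 9_14 and 695 of 10695 with the mouse as a block (6.5%), 631 higher and 64 lower, again with 0 of the list.

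For the PTE+ effect, 9 of 10681 genes were called (0.0843%), 5 higher and 4 lower, and 0 of 31 of the list, with an adjusted p under 0.05 for 0 genes in either interaction (limma, 149 and 9 genes with an unadjusted p under 0.05). All 18 enzymes were positive (median 0.28, all genes 0.07), 18 after quantile normalization, with 18 and 9 genes called higher and lower and Idi1 among them (0.57, limma p 0.0358), and 17 after median centring, with 12 and 4. The count of genes was 49 without 9_14, where 18 enzymes were positive (median 0.24, all genes 0.03). Of the marker genes 0 were called in this interaction. Of the endothelial markers 0 of 8 were positive (median -0.48), of the microglial ones 0 of 11 (-0.29), of the oligodendrocyte ones 9 of 9 (0.39), of the fibroblast and meninges ones 5 of 5 (0.53), of the astrocyte ones 9 of 10 (0.21) and of the neuronal ones 6 of 9 (0.10). Without 9_14 these medians were -0.40, -0.65, 0.33, 0.46, 0.21 and -0.21 in that order and the oligodendrocyte marker Cnp was called higher (0.34, limma p 0.0382, adjusted p 0.9998), and the part of these cells in the enzyme levels was not tested. With the mouse as a block 330 of 10683 genes were called (3.09%), 111 higher and 219 lower, and 1 of the list, Nr1h2 (-0.39 ± 0.14 (SE), limma p 0.0166, adjusted p 0.995), which was at -0.38 ± 0.24 (SE; limma p 0.117) without the block, and at -0.29 without the block and without 9_14. That fit rests on 3 PTE+ mice with both hemispheres (8_10, 9_17 and 9_18). Its Nr1h2 value contains the contralateral values by which the gene was called above, so it is not separate evidence. The first digit of the mouse name was not a term in either interaction.

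The enzymes varied together between mice. Over the 153 pairs of enzymes, with group means removed, the median Pearson r was 0.40 (median Spearman rho 0.45) over 19 ipsilateral libraries and 0.35 (rho 0.31) over 18 contralateral ones, and 117 and 130 pairs were above 0. Without mouse 9_14 the ipsilateral median was 0.63 (rho 0.56). For an enzyme and a gene that is not one of the enzymes the median r was 0.14 ipsilaterally, 0.26 without 9_14, and 0.10 contralaterally. After median centring of each library the enzyme pairs had medians of 0.29 and 0.32, and with the means of each group and name prefix removed 0.31 and 0.38. These values are a description and carry no p.

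Ranked by the smaller of its r values in both hemispheres with the mean of the other enzymes, Acat2, which makes acetoacetyl-CoA, came first (0.82). It was followed by the squalene synthase Fdft1 (0.79), the squalene epoxidase Sqle (0.66), the sterol C14-reductase Tm7sf2 (0.65) and Mvd (0.60). Pmvk (-0.04) and Ebp (-0.39), both ipsilaterally, came last. The order rested on 9_14. Without it Sqle came first (0.91), followed by Acat2 (0.84), Fdft1 (0.84), Mvd (0.82) and Nsdhl (0.74), while Tm7sf2 (0.65) was at rank 8 and Pmvk (0.28) and Ebp (-0.23) again came last. Between the hemispheres of a mouse, over 17 mice with group means removed, the median r of the genes tested was 0.59, from 0.90 for Insig1 and 0.89 for Hmgcs1 to 0.12 for Stard4 and 0.01 for Insig2. For the enzyme mean it was 0.72 (rho 0.57), and 0.53 over the 15 mice left without 8_11 and 8_16, the 2 farthest from the contralateral median. With the means of each group and name prefix removed it was 0.74 (rho 0.67).

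Because the enzymes moved together, promoter sequences are shown for the 3 highest ranked over all libraries that had a window in the reference used. Hmgcs1, the synthase of HMG-CoA, is shown as the only member matching the sterol regulatory element. RefSeq promoter windows of build GRCm38.p6 (250 bases before to 50 after the start) matched 26 of the 32 genes, 15 of them enzymes. Stard4, Fdft1, Sqle, Npc1, Abcg1 and Fdps had none in the reference used. The 250 bases before the start are printed on the strand of the gene, 5′ to 3′, for Acat2 (chr17:12960726-12960975, minus strand), Tm7sf2 (chr19:6067851-6068100, minus strand), Mvd (chr8:122443423-122443672, minus strand) and Hmgcs1 (chr13:119690101-119690350, plus strand). Capitals mark matches on either strand to the sterol regulatory element TCACNCCAC and to the CCAAT box, which reads ATTGG where it lies on the other strand. Acat2 holds neither.
Acat2 promoter: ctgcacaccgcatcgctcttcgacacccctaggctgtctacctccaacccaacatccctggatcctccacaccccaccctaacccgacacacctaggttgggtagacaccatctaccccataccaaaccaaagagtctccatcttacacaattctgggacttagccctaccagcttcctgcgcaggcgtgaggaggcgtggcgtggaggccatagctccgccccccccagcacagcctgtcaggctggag
Tm7sf2 promoter: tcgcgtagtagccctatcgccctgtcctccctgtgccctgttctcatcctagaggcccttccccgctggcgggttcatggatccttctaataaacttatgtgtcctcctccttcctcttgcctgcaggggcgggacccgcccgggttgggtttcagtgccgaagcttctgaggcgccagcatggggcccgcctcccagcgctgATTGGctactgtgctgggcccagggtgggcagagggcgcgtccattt
Mvd promoter: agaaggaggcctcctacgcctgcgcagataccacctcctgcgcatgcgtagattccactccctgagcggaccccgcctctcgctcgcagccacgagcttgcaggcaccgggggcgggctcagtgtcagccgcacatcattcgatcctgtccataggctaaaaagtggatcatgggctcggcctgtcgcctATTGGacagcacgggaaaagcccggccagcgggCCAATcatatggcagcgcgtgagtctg
Hmgcs1 promoter: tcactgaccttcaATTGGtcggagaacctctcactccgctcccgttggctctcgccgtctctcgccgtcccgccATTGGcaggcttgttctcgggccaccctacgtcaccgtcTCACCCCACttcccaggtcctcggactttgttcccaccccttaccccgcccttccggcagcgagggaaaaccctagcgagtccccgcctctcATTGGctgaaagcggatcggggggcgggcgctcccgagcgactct

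The element TCACNCCAC was matched in 1.44% of all genes with a window, and in 1 of 26 of the list (Hmgcs1, 137 to 129 bases before the start). The CCAAT box was matched in 41.1% of genes, in 20 of 26 of the list and in 14 of 15 enzymes, with Acat2 the enzyme without it. The GC box GGGCGG, not in capitals, was matched in 38.2% of genes, in 22 of 26 of the list and in 14 of 15 enzymes, with Pmvk the enzyme without it. A gene counted as matched where any of its windows was, and genes can have more than 1 window. By window, the CCAAT box was matched in 21 of 37 of the list and 37.4% of all windows. The GC box was matched in 26 of 37 and 35.7%. Both strands were searched, and the motifs were counted separately where matches overlap. A match describes letters in the window and not a site of binding, and a missing match says only that these letters are not in the window.

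Other genes of sterol and lipid metabolism were read from further lists. Of 14 genes of the fatty acid branch of SREBP and LXR targets (most abundant Scd2, 778 TPM), 0 were called in any of the 7 comparisons by limma, and 12 of 14 were positive in ipsilateral PTE+ against PTE- (median 0.13), near the median of all genes (0.12, with 71.6% positive). Of 20 genes of sterol turnover, uptake and lipoproteins (most abundant Clu, 9882 TPM), 18 or 19 were tested in each comparison, and only Apoc1 was called. It was higher ipsilaterally in injured mice (0.42, limma p 0.0277, adjusted p 0.970), 1 of 18 tested beside 263 of 10357 genes. Without 9_14 Apoc1 was not called (0.33, limma p 0.0502), while Mbtps1 was called higher in ipsilateral PTE+ against PTE- (0.37, limma p 0.0250, adjusted p 0.983). In contralateral CCI against sham, 3 of the 19 tested were positive (median -0.12, all genes -0.07 with 33.5% positive).

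Further marker genes were called in the CCI comparisons. In ipsilateral CCI mice Gfap (1.18, limma p 0.000523, adjusted p 0.909) and Aqp4 (0.39) were higher, and the oligodendrocyte markers Ermn (-0.998), Mag (-1.53), Opalin (-1.23) and Mog (-1.75) lower. These 4 oligodendrocyte markers are listed at 0 in CCI library 9_14. Without it they were called at -0.88, -1.26, -1.08 and -1.56, Gfap was at 1.32 (adjusted p 0.0212) and Trem2 was called higher (1.26). With all libraries, 6 of 10 astrocyte markers were positive (median 0.06). So were 7 of 11 microglial markers (0.08) and 5 of 5 fibroblast and meninges markers (0.19). Negative were 10 of 10 oligodendrocyte markers (-0.92) and 9 of 9 neuronal markers (-0.43). So were 6 of 8 endothelial markers (-0.15) and 3 of 5 precursor markers (-0.10). Without 9_14 these medians were 0.06, 0.35, 0.34, -0.76, -0.24, -0.18 and -0.06 in that order. Contralaterally Trem2 was called higher (0.73), with 8 of 11 microglial markers positive and 3 negative (median 0.07). Neuronal markers were negative in 8 of 9 (median -0.24) and oligodendrocyte markers in 8 of 10 (-0.23), with 0 called. Astrocyte markers were negative in 7 of 10 (-0.12) and fibroblast and meninges markers in 4 of 5 (-0.32), again with 0 called. The summed ipsilateral oligodendrocyte level was 1808, 4115, 3127, 4499 and 542 TPM in sham mice 8_15, 8_16, 9_9, 9_10 and 9_11, against 774 to 2372 TPM (median 1393) in CCI mice. The part of these cells in the levels of the enzymes was not tested.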

How the data were processed

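Astrocyte RNA from 37 libraries was analysed from the TPM that the authors deposited; their notes name Trim Galore 0.6.4, Bowtie2 2.4.1 and RSEM 1.2.28 on mm10. Both tables were joined by gene identifier, every column was used, and symbols and positions came from GENCODE vM21. TPM keep no depth per library, so precision was read from the spread between mice.

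The members and lists were chosen with earlier results of these data known. Differences were fitted with limma 3.58.1 in R 4.3.3 (lmFit, eBayes with trend) on log2(TPM + 1), over genes that averaged more than 5 TPM in 1 or more of the compared groups, with Benjamini-Hochberg adjustment over all of them. The threshold was an unadjusted p under 0.05 and 1.2-fold. Single genes were tested by two-sided exact permutation of the libraries, or of signs within mice. Python 3.11.15 with numpy 2.4.6, scipy 1.17.1, pandas 2.3.3 and matplotlib 3.10.9 was used. The code was tested on simulated data.

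Described singly were members called in a comparison within a hemisphere, the 4 members with the highest mean TPM and the 3 with the largest difference in each such comparison. Genes of other lists were named where called, and for each list but the microglial one the most abundant gene. Enzymes whose call changed without a library, those of the hemisphere comparisons and those ranked by co-variation were named after their values were seen.

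Alternatives were a pseudocount of 0.1, no filter or one of 1 TPM, quantile normalization, median centring, weights by library quality, the 3 groups in 1 fit, the first digit of the mouse name as a term, no fold threshold or 1.5-fold, leaving out each PTE+ or sham library or 9_14, and the mouse as a block. Analysing only mice named 9, and co-variation after centring, without 9_14 or with prefix means removed, were chosen after seeing the data.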

Additional observations from a re-analysis of the deposited data

Results flagged for a closer look

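In groups of 4 to 10 libraries, 14 of 144 measures checked (9.72%) had a value far from the rest of its group, where chance gives about 1 in 20, and 6 of the 14 were in ipsilateral PTE- mouse 9_14. In 9_14 these were Fdps at 638.74 TPM (others 217.13 to 402.89), Msmo1 at 1260.14 TPM (503.25 to 862.44), Nr1h2 at 240.09 TPM (90.46 to 151.81), Nr1h3 at 86.27 TPM (19.7 to 31.03), the summed fibroblast and meninges markers at 253.64 TPM (80.66 to 170.63) and the number of genes above 0, 10727 (15599 to 18319 in the other ipsilateral libraries).

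In PTE+ mice these were ipsilateral Dhcr7 in 8_10 at 136.14 TPM (311.24 to 326.82 in the others), the ipsilateral enzyme mean in 8_10 at 6.78 (7.23 to 7.24), contralateral Fdps in 9_17 at 295.75 TPM (416.22 to 432.1), contralateral Nr1h3 in 9_18 at 26.3 TPM (18.07 to 18.95) and the contralateral mean of all members in 8_17 at 6.84 (6.65 to 6.67). The others were ipsilateral Srebf1 in sham mouse 9_11 at 553.92 TPM (237.53 to 275.53), the ipsilateral microglial sum in sham mouse 9_10 at 969.82 TPM (130.97 to 352.27) and the contralateral neuronal sum in PTE- mouse 9_13 at 683.5 TPM (75.95 to 382.24).

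The CCI effect on the astrocyte marker Gfap differed between hemispheres, by 1.41 on the log2 scale (limma p 0.00305, adjusted p 1.0). The causes of these values were not tested.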

How the results depend on the processing

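Of 90 counts of all genes under an alternative, 58 stayed within 1.5 times the reported count, 26 were larger and 6 smaller. Of 90 counts of called members, 71 were the same, 17 larger and 2 smaller. The 80 differences in means moved by less than 1 pooled SD between mice. The 5 co-variation medians moved by less than 1 SD of r over the enzyme pairs. Both limits are wide and do not measure the precision of these values. The ipsilateral co-variation counted as unmoved at 0.40 and at 0.63 (SD 0.42). So did the enzyme mean difference in ipsilateral CCI, which ran from -0.15 to 0.11. Of 528 differences of single genes, 487 kept direction and call, 17 became called, 2 lost the call and 22 changed sign. The causes were not tested, except that a lower filter tests more genes and a higher fold passes fewer.

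Genes called, in the order ipsilateral CCI, ipsilateral PTE, contralateral CCI, contralateral PTE, hemispheres of CCI mice, and the CCI and PTE interactions, were 379, 171, 682, 458, 426, 365 and 109 with no filter. In the first 4 they were 89, 32, 70 and 118 at 1.5-fold. A mean above 1 TPM gave 273 in ipsilateral CCI. Array weights gave 843 in ipsilateral CCI, 441 in ipsilateral PTE and 828 in contralateral PTE. The mouse as a block gave 467, 695 and 330 in the last 3, and the genes of the list that it called are named in the report. The PTE interaction had 27 after quantile normalization and 16 after median centring.

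Members called were 2, 8 and 1 with array weights (ipsilateral CCI and PTE, contralateral CCI), among 843 of 10434, 441 of 10473 and 608 of 10556 genes. With the name prefix 1 was called in either CCI comparison, among 198 of 10434 genes ipsilaterally and 440 of 10556 contralaterally. Median centring gave 2 in contralateral CCI, among 410 of 10556 genes, and 1 between hemispheres, among 285 of 10357. Quantile normalization gave 1 in the PTE interaction, among 27 of 10681 genes. The block gave 2 between hemispheres and 1 in the PTE interaction, among 467 of 10350 and 330 of 10683 genes. Contralateral PTE had 0 at 1.5-fold, among 118 of 10423 genes, and 0 in mice named 9, among 405 of 10727.

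Leaving out each PTE+ library, each sham library where compared, or 9_14 ipsilaterally (no other PTE- library) gave 138 to 415 genes in ipsilateral CCI, 23 to 197 in ipsilateral PTE, 231 to 883 in contralateral CCI and 201 to 489 in contralateral PTE, with 0 to 1, 0 to 5, 0 to 1 and 1 members. Without 9_14 there were 288 and 49 genes and 0 members in the interactions. The enzyme mean differed by -0.15 to 0.11, 0.27 to 0.42, -0.00 to 0.12 and -0.03 to 0.06 in the first 4, the mean of all members by -0.08 to 0.13, 0.15 to 0.29, -0.03 to 0.09 and -0.03 to 0.04, and the ipsilateral co-variation was 0.63 without 9_14.

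Leaving out the same libraries in turn gave ranges across 0 for Apoe in contralateral CCI (-0.0245 to 0.138) and contralateral PTE (-0.159 to 0.0410), Lss in ipsilateral CCI (-0.527 to 0.0558), Msmo1 in ipsilateral CCI (-0.241 to 0.1004) and contralateral CCI (-0.154 to 0.104), and Srebf1 in contralateral CCI (-0.105 to 0.0101) and contralateral PTE (-0.0908 to 0.205). Array weights changed the sign of Hsd17b7 (0.0942) and Lss (0.325) in ipsilateral CCI and of Srebf1 in contralateral PTE (-0.0685). Median centring did so for Msmo1 (0.0491) and Srebf1 (0.0593) in contralateral CCI and for Srebf1 in contralateral PTE (-0.0385). Mice named 9 alone gave 0.0152 for Msmo1 in ipsilateral CCI, 0.0054 for Srebf1 in contralateral CCI, and -0.0051 for Fdps and -0.27 for Srebf1 in contralateral PTE.

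Limits were these. The depth of each library was unknown, since TPM keep none. TPM are shares, so a level can move because other RNA does. With 4 PTE+ mice a side and 3 with both hemispheres, group means rest on few mice, and the size of difference that such groups can detect was not tested. RNA levels do not measure sterols or protein. The meaning of the first digit of mouse names is not stated.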
